A study of Mus musculus with 4 samples.

Results

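The 6 genes described here, Saa3, Saa1, Slpi, Lcn2, Hp and Wfdc17, encode secreted acute-phase and antiprotease proteins, and were followed across stroma, mesothelium, tumour cells and neutrophils of mouse pancreatic tumours grown from the KPC-4545 and KPC-3403 lines. They were taken by symbol from the 32285 genes of the count tables, and all 6 had at least 1 unique molecular identifier (UMI, a tag that marks 1 captured RNA molecule) in a cell. They had been picked because of their levels in these cells, so their levels by cell class are a description. The series held 4 single-cell libraries made with 10x 5′ chemistry from untreated tumours of C57BL/6J mice, taken on day 13 after orthotopic implantation of a KPC line into the pancreas. Each line gave 1 enriched library, in which a sort had discarded cells positive for TER119, EPCAM, CD31 or CD45 to favour fibroblasts, and 1 whole-tumour library of unsorted cells. The groups were therefore KPC-4545 enriched, KPC-4545 whole, KPC-3403 enriched and KPC-3403 whole, each with 1 library. Neither the age nor the number of the mice was given in the labels, and no group had a replicate, so no p-value could be had and every interval below is a 95% interval of counting error only. The spread between animals is not in those intervals.

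Acute-phase proteins are made in quantity by the liver during infection or injury, under interleukin 6, interleukin 1 and tumour necrosis factor, through the transcription factors STAT3, C/EBP and NF-κB. Several are also made outside the liver by stromal, epithelial and myeloid cells. Serum amyloid A proteins are small apolipoproteins of high-density lipoprotein; Saa1 is the classical liver gene, and Saa3 is the mouse gene best known from macrophages, fat and other tissues outside the liver. Haptoglobin (Hp) binds free haemoglobin, and lipocalin 2 (Lcn2) binds iron-loaded bacterial siderophores; both are stored in neutrophil granules. Slpi and Wfdc17 carry the whey acidic protein (WAP) fold: Slpi inhibits neutrophil elastase and cathepsin G, and Wfdc17 is known in mouse from activated macrophages and microglia. Pancreatic tumours hold fibroblasts with an inflammatory program in which acute-phase genes are active, and mesothelium lines the surface of the organ.

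In mm10 coordinates with GENCODE vM21 annotation, Saa3 (ENSMUSG00000040026) spans chr7:46711998-46715700 and Saa1 (ENSMUSG00000074115) chr7:46740497-46742980, both on the minus strand. Slpi (ENSMUSG00000017002) spans chr2:164354070-164389095 and Lcn2 (ENSMUSG00000026822) chr2:32384633-32388252, both on the minus strand. Hp (ENSMUSG00000031722) spans chr8:109575128-109579172 on the minus strand, and Wfdc17 (ENSMUSG00000069792) chr11:83703991-83706268 on the plus strand. Saa1 and its neighbour Saa2 have nearly the same transcript, with 572 of 606 aligned bases identical (94.4%), so the division of reads between them is uncertain. The promoter bases that lie outside annotated exons are shown for the 5 members with an entry in the RefSeq table (build GRCm38.p6), because C/EBP and NF-κB are known to act on acute-phase genes. Each is written 5′ to 3′ on the gene's strand, with motif matches in capitals.
Saa3 promoter, chr7:46715701-46715926, minus strand: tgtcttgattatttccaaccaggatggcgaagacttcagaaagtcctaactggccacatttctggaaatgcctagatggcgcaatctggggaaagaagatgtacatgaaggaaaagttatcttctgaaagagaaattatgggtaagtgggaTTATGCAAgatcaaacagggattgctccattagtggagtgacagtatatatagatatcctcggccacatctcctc
Saa1 promoter, chr7:46742981-46743230, minus strand: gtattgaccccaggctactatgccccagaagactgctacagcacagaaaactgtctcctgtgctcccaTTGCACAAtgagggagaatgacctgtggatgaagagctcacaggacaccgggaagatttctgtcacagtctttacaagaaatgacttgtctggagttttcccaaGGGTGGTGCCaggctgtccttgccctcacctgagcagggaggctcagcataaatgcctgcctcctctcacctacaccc
Slpi promoter, chr2:164356508-164356757, minus strand: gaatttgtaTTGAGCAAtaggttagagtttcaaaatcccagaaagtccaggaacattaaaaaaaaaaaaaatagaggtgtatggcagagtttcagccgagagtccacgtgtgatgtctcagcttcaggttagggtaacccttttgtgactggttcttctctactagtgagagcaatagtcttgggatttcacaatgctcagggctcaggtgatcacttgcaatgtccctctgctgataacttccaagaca
Lcn2 promoter, chr2:32387798-32387850, minus strand: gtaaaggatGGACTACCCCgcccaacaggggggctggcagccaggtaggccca
Wfdc17 promoter, chr11:83703806-83703990, plus strand: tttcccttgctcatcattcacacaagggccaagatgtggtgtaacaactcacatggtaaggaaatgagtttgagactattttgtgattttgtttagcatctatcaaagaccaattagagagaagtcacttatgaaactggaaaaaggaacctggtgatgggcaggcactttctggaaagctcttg

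The 250 bases before each RefSeq start were searched on both strands. The C/EBP letters TTGCNNAA were found in 4 of the 5 members' windows, against 9.56% of 32851 mouse promoters of the same length. Saa3 held TTATGCAA, the motif on the other strand, 99 to 92 bases before its start; Slpi held TTGAGCAA, also on the other strand, 241 to 234 bases before its start. Saa1 held TTGCACAA 182 to 175 bases before its start, and Lcn2 held TTGCTCAA 216 to 209 bases before it, in bases that overlap an annotated exon and are not printed. An NF-κB pattern, GGG and CC with 5 bases of any kind between them, was found in Saa1 (GGGTGGTGCC) and in Lcn2 (GGACTACCCC, on the other strand), against 45.8% of all promoters. The STAT letters TTCNNNGAA, found in 7.02% of promoters, and the TATA box letters TATAAA, found in 12.4%, had no match in the 5 members. Where they were found, no C/EBP match overlapped an NF-κB match. These matches are letters in a window and do not show binding.

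Total UMIs were 47207893 in the KPC-4545 enriched library, 5746733 in KPC-4545 whole, 51450719 in KPC-3403 enriched and 13990046 in KPC-3403 whole. After filtering they held 1524, 527, 2469 and 1073 cells, with median depths of 10640, 3589, 16324 and 4191 UMIs. In the KPC-4545 enriched library 50.5% of barcodes with enough UMIs were over the mitochondrial limit of 20%, against 3.18% to 16.2% in the other libraries. The KPC-4545 enriched and KPC-3403 whole libraries shared 138 cell barcodes, where other pairs shared 6 to 8. In 130 of the 138 the KPC-4545 enriched copy was the small one, with a median of 2.55 UMIs for each 100 of the large copy. Small copies were therefore removed, and results that change when they are kept are named beside the dependence on processing. The enriched label was only partly borne out: tumour-like cells made up 1459 of the 1524 cells of the KPC-4545 enriched library and 715 of the 2469 cells of the KPC-3403 enriched one.

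Cells were clustered without the 6 members and without the other listed pathway genes, so the members did not make the clusters. Fibroblast-like cells numbered 50 in KPC-4545 enriched, 8 in KPC-4545 whole, 1468 in KPC-3403 enriched and 53 in KPC-3403 whole. They fell into 4 clusters: cluster 0, led by Cxcl13, Calca and Serpinb2 with Pdgfra and the mesothelial marker Wt1; cluster 3, led by Pi16, Clec3b and Dpt; the contractile cluster 8, with Acta2 and Tagln; and the cycling cluster 17. Of the 848 cells of cluster 0, 824 came from the KPC-3403 enriched library. Mesothelial-like cells (cluster 9) numbered 4, 3, 196 and 4 in the same order of libraries, and detected 10 of 10 mesothelial markers in KPC-3403 enriched; the same sum held 10 of 10 fibroblast markers, at 12362 CPM (UMIs of a gene per 1000000 summed UMIs of the class). Their number in that library ran from 133 to 335 over the other settings tried. Neutrophil-like cells numbered 2, 26, 22 and 132, and were a mature cluster 12, with G0s2, Il1b and Retnlg, and a granule-gene cluster 23, with Ngp, Camp and Ltf. Levels are given for classes of at least 20 cells in a library unless a cell number is stated.

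Saa3 was the most abundant member, with 203630 UMIs over all cells, and in each library fibroblast-like cells held most of them, 86.3% in KPC-4545 enriched, 97.2% in KPC-4545 whole, 90.0% in KPC-3403 enriched and 92.8% in KPC-3403 whole. Its level in fibroblast-like cells was 828 CPM in KPC-4545 enriched (interval 750 to 912), 7322 CPM in KPC-3403 enriched and 3526 CPM in KPC-3403 whole. In the 8 such cells of KPC-4545 whole it was 4658 CPM, from 742 UMIs. The KPC-4545 enriched value therefore stood well below the other libraries' values, including that of the same line without sorting. Cluster 0 gave 5 of the 8 KPC-4545 whole cells and 637 of their 742 UMIs, but only 3 of the 50 KPC-4545 enriched cells. The part of this cluster mix in the contrast was not tested. Mesothelial-like cells of KPC-3403 enriched had 4086 CPM. Tumour-like cells were low in all libraries, at 0.234 CPM in KPC-4545 enriched, 0 in KPC-4545 whole, 54.9 CPM in KPC-3403 enriched and 3.17 CPM in KPC-3403 whole. In the KPC-3403 enriched library the fibroblast-like level was 133-fold and the mesothelial-like level 74.4-fold the tumour-like level. The mesothelial-like ratio was 6.22 on the log2 scale, and 7.31 when clustered at resolution 2 in place of 1. The latter lay above the fibroblast-like ratio of 7.06 at resolution 1, so no order of these 2 classes is read for Saa3. Of the 4 members tested in that library, 3 (Saa3, Slpi and Hp) were called higher in each of the 2 classes than in tumour-like cells, against 13.8% of genes in fibroblast-like and 14.8% in mesothelial-like cells; the members were chosen on this contrast, so nothing is read from the counts.

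**Figure D1:**
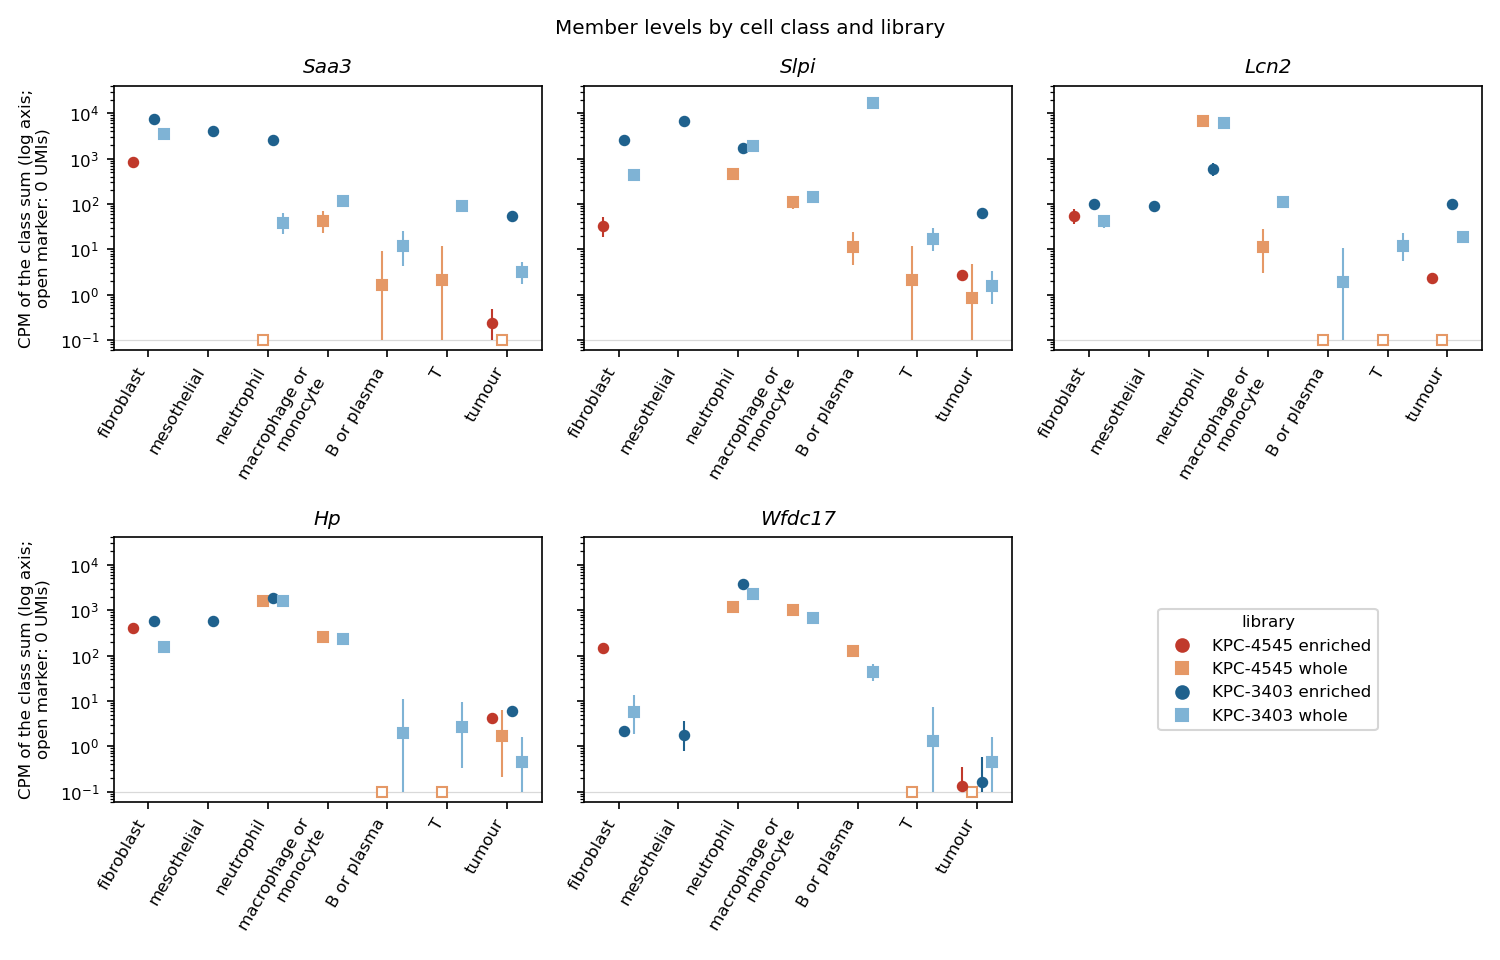
Level of the members (vertical axis, CPM of the class's summed UMIs, log scale) in each class and library of at least 20 cells, with open markers at the foot for sums of 0 UMIs; points are 1 library each and bars are exact 95% Poisson intervals. Saa3 stood highest in fibroblast-like cells, at 7322 CPM in KPC-3403 enriched, while Lcn2 stood highest in neutrophil-like cells, at 6893 CPM in KPC-4545 whole and 6135 CPM in KPC-3403 whole.

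Saa3 in myeloid cells was far lower. Neutrophil-like cells had 0 UMIs in KPC-4545 whole and 38.9 CPM (16 UMIs) in KPC-3403 whole. The 22 neutrophil-like cells that passed the CD45-negative sort in KPC-3403 enriched had 2552 CPM, but 121 of their 148 Saa3 UMIs lay in 1 cell, and the level without it was 577 CPM. Those cells also held fibroblast markers, 7 of 10 detected at 1138 CPM in sum, against 6 of 10 at 119 CPM in KPC-3403 whole and 3 of 10 at 68.4 CPM in KPC-4545 whole; their part in the Saa3 value was not tested. Macrophage-like cells, the class best known for Saa3, had 41.9 CPM in KPC-4545 whole and 114 CPM in KPC-3403 whole, and T-like cells 2.11 and 89.3 CPM, where 58 of the 67 UMIs of the KPC-3403 T-like cells lay in 1 cell. Single cells also held 10 of the 15 macrophage-like Saa3 UMIs of KPC-4545 whole and 51 of the 79 of KPC-3403 whole, and the levels without them were 14.2 and 40.9 CPM. Saa3 made up 649, 799, 8796 and 1202 CPM of the RNA outside cells in KPC-4545 enriched, KPC-4545 whole, KPC-3403 enriched and KPC-3403 whole.

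To set cells of unequal depth side by side, each cell was thinned to 1000 UMIs. In KPC-3403 enriched, Saa3 was then found in 65.8% of fibroblast-like cells (84.1% unthinned), 68.4% of mesothelial-like cells (88.3% unthinned) and 7.84% of tumour-like cells (48.7% unthinned). In KPC-3403 whole it was found in 3.36% of T-like, 1.64% of B or plasma-like and 0% of NK-like cells, classes not known to make it. In KPC-3403 enriched itself, where free RNA was richest in Saa3, erythroid-like cells, another class not known to make it, had the gene in 6 of 42 cells (14.3%, 5.43% to 28.5%; 54.3% unthinned). The tumour-like share of that library lay below this value and within its interval. With estimated free RNA subtracted, the tumour-like level there went from 54.9 to 38.9 CPM. The source of these UMIs was not tested, and the share is not read as expression. In KPC-3403 whole no tumour-like cell of 243 had the gene. Fibroblast markers were also more abundant in the tumour-like cells of KPC-3403 enriched, with 10 of 10 detected at 319 CPM, against 8 of 10 at 14.5 CPM in KPC-3403 whole, and their part in the Saa3 share was not tested.

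Within fibroblast-like cells Saa3 followed the clusters. In KPC-3403 enriched it was 10680 CPM in cluster 0, 5809 CPM in the cycling cluster 17, 2339 CPM in the contractile cluster 8 and 1618 CPM in the Pi16 cluster 3, while mesothelial-like cells had 4086 CPM. Cluster 0 was also highest in the small samples of the other libraries, with 6715 CPM in 5 cells of KPC-4545 whole and 5403 CPM in 16 cells of KPC-3403 whole, but its 3 cells of KPC-4545 enriched held no Saa3 UMI. After thinning, 86.8% of cluster 0 cells, 75.3% of cluster 17, 39.5% of cluster 8 and 28.0% of cluster 3 had the gene in KPC-3403 enriched. Single cells varied widely: over fibroblast-like cells of that library the median was 29.9 Saa3 UMIs per 10000, with quartiles of 1.63 and 107 and a highest cell at 642. The 147 highest of the 1468 cells held 45.2% of the Saa3 UMIs.

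**Figure D2:**
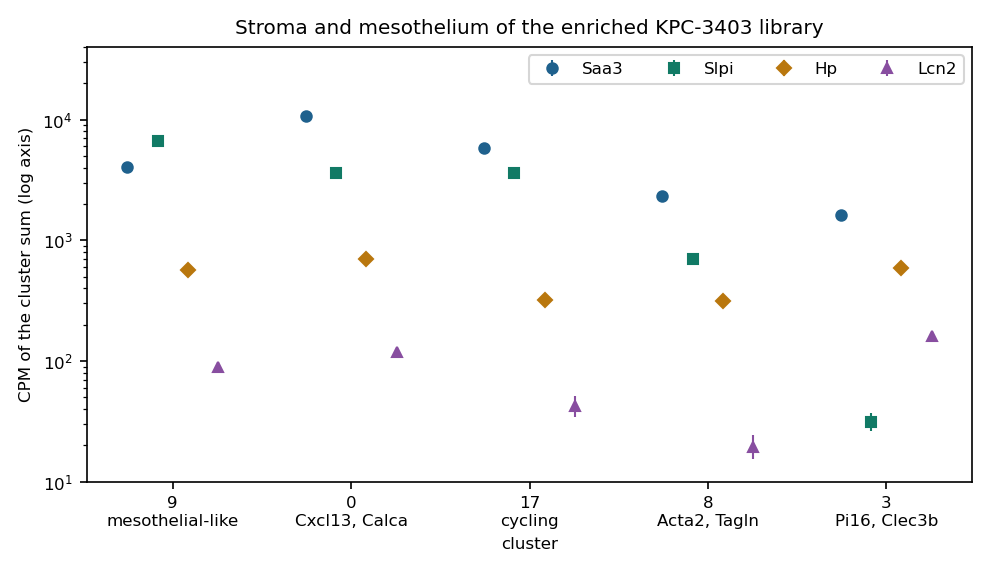
Level of Saa3, Slpi, Lcn2 and Hp (vertical axis, CPM, log scale) in the 4 fibroblast-like clusters and the mesothelial-like cluster of KPC-3403 enriched, with exact 95% Poisson intervals. Saa3 was highest in cluster 0 (10680 CPM) and Slpi in mesothelial-like cells (6655 CPM), and the Pi16 cluster 3 was lowest for Slpi (31.2 CPM).

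Saa1, the classical liver serum amyloid gene, was close to absent. It had 61 UMIs over all cells, 4 of them in fibroblast-like cells of KPC-4545 enriched (8.0 CPM) and 56 in those of KPC-3403 enriched (2.29 CPM), and none in cells of the whole-tumour libraries. Its neighbours Saa2 and Saa4 had 13 and 1 UMIs. Because reads of Saa1 and Saa2 can be confused, these 2 counts are best read together. At the depth of KPC-3403 enriched, Saa3 UMIs outnumbered Saa1 UMIs in fibroblast-like cells by 179193 to 56.

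Slpi, the elastase inhibitor, was the member highest in mesothelial-like cells of KPC-3403 enriched, as clustered at resolution 1. In the 4 such cells of KPC-4545 enriched, Slpi had 290 CPM and Saa3 778 CPM. In the 3 of KPC-4545 whole they had 299 and 0 CPM, and in the 4 of KPC-3403 whole 702 and 676 CPM. In KPC-3403 enriched Slpi had 6655 CPM in mesothelial-like cells, 2558 CPM in fibroblast-like cells, 1759 CPM in neutrophil-like cells and 62.9 CPM in tumour-like cells. Of the 786 tumour-like UMIs, 424 lay in 1 cell of 41060 UMIs that also held 128 Saa3 UMIs, and the level without it was 29.1 CPM. Fibroblast-like cells had 32.0 CPM in KPC-4545 enriched (16 UMIs) and 426 CPM in KPC-3403 whole (378 UMIs), and 1048 CPM in the 8 cells of KPC-4545 whole. Tumour-like cells had 2.70, 0.852 and 1.58 CPM in KPC-4545 enriched, KPC-4545 whole and KPC-3403 whole.

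Slpi was also abundant in a few antibody-secreting cells. In KPC-3403 whole the B or plasma-like class had 16498 CPM, the highest Slpi level of that library, against 11.5 CPM in the same class of KPC-4545 whole. When the class was split at 10 UMIs of Jchain, the antibody joining chain made by plasma cells, 8 cells of KPC-3403 whole held 8497 of the 8504 Slpi UMIs, with 1 to 2590 UMIs a cell and a median of 760.5. The other 116 cells had 19.1 CPM, close to the 11.5 CPM of the 177 cells of KPC-4545 whole, none of which reached 10 Jchain UMIs. In KPC-3403 enriched, 2 cells passed that limit and held 2461 Slpi UMIs. The split was chosen after the values had been seen.

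The order of Slpi levels in KPC-3403 whole was B or plasma-like, neutrophil-like (1919 CPM), fibroblast-like (426 CPM), macrophage-like (141 CPM) and then T-like, erythroid-like, tumour-like and NK-like cells. Intervals of neighbours overlapped between T-like and erythroid-like and between tumour-like and NK-like cells. In KPC-4545 whole the order was neutrophil-like (453 CPM), macrophage-like (109 CPM) and then B or plasma-like, T-like, tumour-like and the remaining classes, which overlapped from the B or plasma-like cells down. For Saa3 the order in KPC-3403 whole was fibroblast-like, macrophage-like, T-like, neutrophil-like and then B or plasma-like, erythroid-like, NK-like and tumour-like cells, with overlap between macrophage-like and T-like cells and from neutrophil-like cells down.

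Within the stroma of KPC-3403 enriched, Slpi reached 3634 CPM in cluster 0 and 3615 CPM in the cycling cluster 17, against 705 CPM in cluster 8 and 31.2 CPM in cluster 3. Slpi thus separated the Pi16 cells more sharply than Saa3 did, with 3.38% of thinned cluster 3 cells positive against 56.7% of cluster 0 and 73.5% of mesothelial-like cells. In thinned fibroblast-like cells, 34.4% had both Saa3 and Slpi, against 26.4% from the product of the 2 shares. Within cluster 0 alone the same values were 51.5% and 49.2%, and in mesothelial-like cells 55.1% and 50.2%.

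Stromal and mesothelial-like cells of KPC-3403 enriched were also put in order of their share of mesothelial-marker UMIs and cut into 5 groups of 332 or 333 cells. Saa3 was 1360, 6986, 10231, 8384 and 5501 CPM from the lowest to the highest group, and so was highest in the middle group. Slpi was 139, 1851, 3613, 3801 and 5580 CPM and was highest at the mesothelial end. Hp, at 323, 742, 612, 653 and 479 CPM, and Lcn2, at 101, 114, 104, 90.4 and 91.0 CPM, showed no such order. Mesothelial-like cells made up 0%, 0.3%, 1.8%, 8.41% and 48.5% of the groups, and the lowest group was also the shallowest, with a median of 11079 UMIs against 17540 to 18520.5 in the others.

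**Figure D3:**
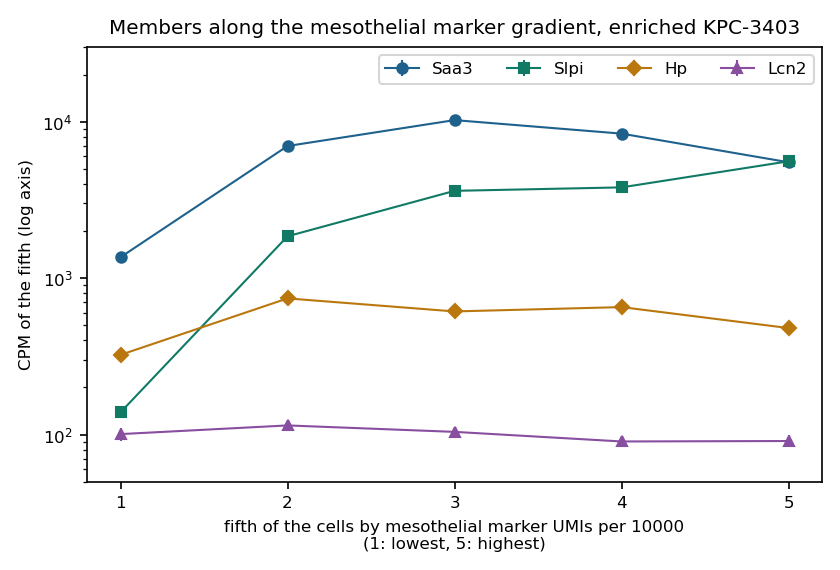
Level of Saa3, Slpi, Hp and Lcn2 (vertical axis, CPM, log scale) in 5 groups of fibroblast-like and mesothelial-like cells of KPC-3403 enriched, in order of their share of mesothelial-marker UMIs (horizontal axis), with exact 95% Poisson intervals. Saa3 was highest in the middle group (10231 CPM) and Slpi in the highest (5580 CPM).

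Haptoglobin was shared by stroma and myeloid cells. Neutrophil-like cells had 1616 CPM of Hp in KPC-4545 whole, 1897 CPM in KPC-3403 enriched and 1574 CPM in KPC-3403 whole. All 22 enriched cells were of the mature cluster 12, and within that cluster Hp was 610 CPM in KPC-4545 whole, 1897 CPM in KPC-3403 enriched and 728 CPM in KPC-3403 whole. Fibroblast-like cells had 412 CPM in KPC-4545 enriched, 579 CPM in KPC-3403 enriched and 158 CPM in KPC-3403 whole, mesothelial-like cells of KPC-3403 enriched 565 CPM, and macrophage-like cells 251 CPM in KPC-4545 whole and 234 CPM in KPC-3403 whole. Tumour-like cells had 4.21, 1.70, 6.08 and 0.452 CPM in KPC-4545 enriched, KPC-4545 whole, KPC-3403 enriched and KPC-3403 whole. Unlike Saa3 and Slpi, Hp was almost as high in the Pi16 cluster 3 (595 CPM) as in cluster 0 (695 CPM) of KPC-3403 enriched, and lower in clusters 17 (323 CPM) and 8 (315 CPM). Few stromal cells made most of it: 147 of 1468 fibroblast-like cells held 71.5% of the Hp UMIs.

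Lipocalin 2 was the neutrophil member. It had 6893 CPM in neutrophil-like cells of KPC-4545 whole (806 UMIs) and 6135 CPM in those of KPC-3403 whole (2522 UMIs), 96.8% and 91.9% of all Lcn2 UMIs in the cells of those libraries. The 22 neutrophil-like cells of KPC-3403 enriched, all of the mature cluster 12, had 586 CPM. Fibroblast-like cells had 54.0 CPM in KPC-4545 enriched, 102 CPM in KPC-3403 enriched and 41.7 CPM in KPC-3403 whole (18.5 CPM without the richest cell), and mesothelial-like cells of KPC-3403 enriched 89.0 CPM. Tumour-like cells had 2.34, 0, 101 and 18.3 CPM in KPC-4545 enriched, KPC-4545 whole, KPC-3403 enriched and KPC-3403 whole. In KPC-3403 enriched the tumour-like and fibroblast-like levels were thus alike in size, but 72 of 715 tumour-like cells held 99.7% of the tumour-like UMIs.

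Wfdc17 was a myeloid member. Neutrophil-like cells had 1154 CPM in KPC-4545 whole, 3810 CPM in KPC-3403 enriched and 2296 CPM in KPC-3403 whole, and macrophage-like cells 1010 CPM in KPC-4545 whole and 665 CPM in KPC-3403 whole. B or plasma-like cells followed with 128 CPM (78 UMIs) in KPC-4545 whole and 42.7 CPM (22 UMIs) in KPC-3403 whole. Tumour-like cells held at most 0.452 CPM in any library. Fibroblast-like cells had 2.12 CPM in KPC-3403 enriched and 5.63 CPM in KPC-3403 whole, and 148 CPM in KPC-4545 enriched, where 62 of the 74 UMIs lay in 1 cell and the level without it was 24.6 CPM. In the fibroblast-like cells of KPC-4545 enriched, 2 of 8 macrophage markers were detected at 8.0 CPM in sum, with C1qa, C1qb and C1qc at 0, and 3 of 10 neutrophil markers at 199.996 CPM in sum, with S100a8 and S100a9 at 0. In those of KPC-3403 enriched, 7 of 8 macrophage markers summed to 71.2 CPM and 8 of 10 neutrophil markers to 141 CPM; the part of these cells in the Wfdc17 levels was not tested.

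The 2 neutrophil clusters divided the members. In the granule-gene cluster 23, of 3 cells in KPC-4545 whole and 13 in KPC-3403 whole, Lcn2 was 13180 and 13294 CPM and Hp 2586 and 2908 CPM. In the mature cluster 12, of 23 and 119 cells, Lcn2 was 366 and 1594 CPM and Hp 610 and 728 CPM. Slpi and Wfdc17 ran the other way, with 168 and 476 CPM of Slpi in cluster 23 against 749 and 2835 CPM in cluster 12, and 0 and 31.3 CPM of Wfdc17 in cluster 23 against 2353 and 3733 CPM in cluster 12. The order held in both whole-tumour libraries. In KPC-3403 whole, 14 of 132 neutrophil-like cells held 91.2% of the Lcn2 UMIs, as against 64.0% for Slpi and 62.4% for Wfdc17.

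**Figure D4:**
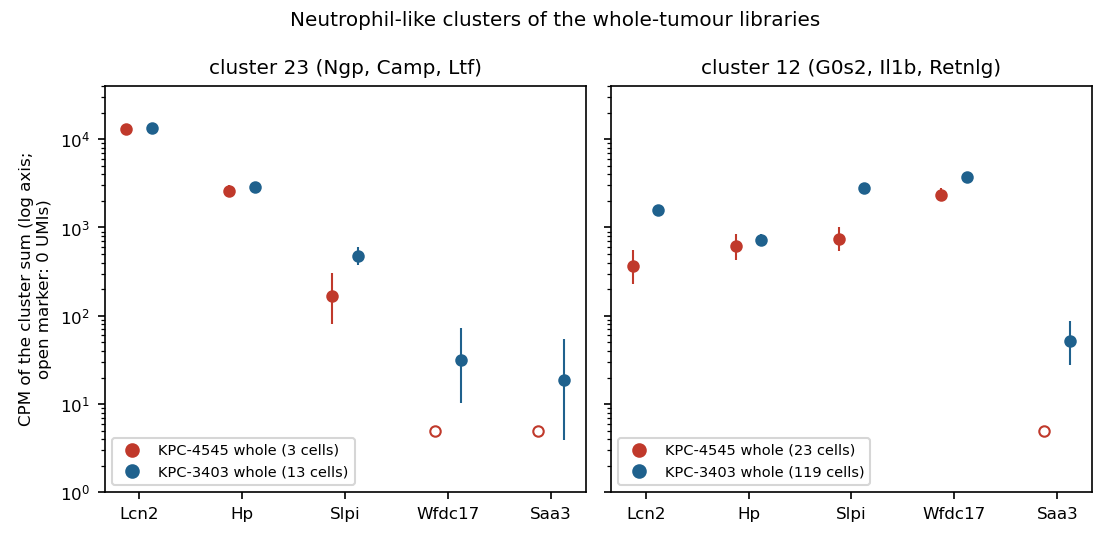
Level of Lcn2, Hp, Slpi, Wfdc17 and Saa3 (vertical axis, CPM, log scale) in the granule-gene cluster 23 and the mature cluster 12 of the whole-tumour libraries, with exact 95% Poisson intervals. Open markers stand for sums of 0 UMIs and are drawn at a fixed height that is not a level. Lcn2 was 13180 and 13294 CPM in cluster 23 of KPC-4545 and KPC-3403 and 366 and 1594 CPM in cluster 12, while Wfdc17 was 0 and 31.3 CPM in cluster 23.

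The lines were then compared within a class and preparation, as a ratio of KPC-4545 over KPC-3403. A gene was called where the ratio was past 2-fold at a mean of at least 10 CPM. In fibroblast-like cells of the enriched libraries Saa3 (0.113, interval 0.102 to 0.125) and Slpi (0.0125, 0.00715 to 0.0203) were lower in KPC-4545, and Lcn2 (0.529, 0.348 to 0.772) and Hp (0.711, 0.617 to 0.816) did not pass 2-fold. Without the cell richest in Lcn2 in each sum, Lcn2 did pass, at −1.61 on the log2 scale. Wfdc17 passed in the other direction (69.7, 48.2 to 101), and without the richest cell of each sum it had 24.6 CPM in KPC-4545 and 1.55 CPM in KPC-3403, still past 2-fold. Of the 5 members tested, 2 were called lower and 1 higher, where 5.09% and 15.7% of all 7999 genes tested were called in those directions. The 50 KPC-4545 cells were mostly of cluster 3 (28 cells) and cluster 8 (19 cells), and the 1468 KPC-3403 cells mostly of cluster 0 (824 cells).

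Within cluster 3 alone, 28 cells of KPC-4545 enriched had 1010 CPM of Saa3, against 1618 CPM in 329 cells of KPC-3403 enriched, a ratio of 0.624 (0.554 to 0.702). This ratio was nearer 1 than that over all fibroblast-like cells, but 132 of the 295 KPC-4545 UMIs lay in 1 cell, and without the richest cell of each sum the levels were 611 CPM in KPC-4545 and 1479 CPM in KPC-3403, past 2-fold. Thinned shares of positive cells were 29.6% in KPC-4545 and 28.0% in KPC-3403. Slpi had 0 UMIs in KPC-4545 and 129 in KPC-3403 in that cluster, at least 3.04-fold lower with a floor of 3 UMIs in the sum. Lcn2 (0.529, 0.340 to 0.788) and Hp (0.874, 0.737 to 1.03) stayed within 2-fold, though without the richest cells Lcn2 passed it, with 49.8 CPM in KPC-4545 and 149.8 CPM in KPC-3403. Wfdc17 was higher in KPC-4545 (27.5, 18.4 to 41.9), with 253 CPM in KPC-4545 and 9.20 CPM in KPC-3403; without the richest cell of each sum the levels were 42.7 CPM in KPC-4545 and 5.84 CPM in KPC-3403. Over all genes tested in cluster 3, 5.38% were called lower and 10.5% higher.

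**Figure D5:**
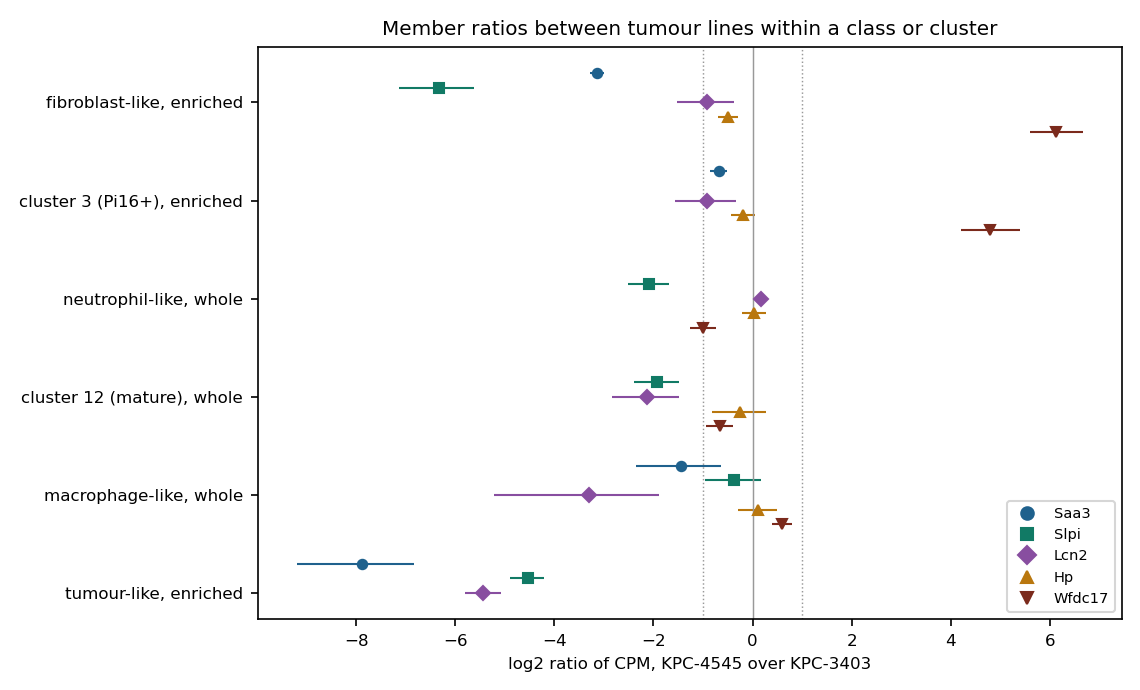
Log2 ratio of KPC-4545 over KPC-3403 of each member (horizontal axis, 0 marks equal levels and dotted lines 2-fold) within classes and clusters of the same preparation, with exact 95% intervals of counting error; members at 0 UMIs in a sum or under a mean of 10 CPM are not drawn. Saa3 lay at −3.14 over enriched fibroblast-like cells and nearer 0 within cluster 3, and Lcn2 (0.17) and Hp (0.04) lay near 0 in neutrophil-like cells.

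In neutrophil-like cells of the whole-tumour libraries, Slpi was lower in KPC-4545 at 453 CPM, against 1919 CPM in KPC-3403 (ratio 0.236, 0.175 to 0.312). Wfdc17 was 1154 CPM in KPC-4545 and 2296 CPM in KPC-3403 (0.503, 0.417 to 0.603), just inside the 2-fold limit, which it passed under either other scaling (−1.32 and −1.34 on the log2 scale) and without the richest cells (−1.54). Over the whole class Lcn2 (1.12, 1.04 to 1.22) and Hp (1.03, 0.869 to 1.21) were near equal, and their direction turned to lower in KPC-4545 under trimmed-mean or median-ratio scaling, since the median gene of this comparison lay at 0.34 on the log2 scale. In KPC-4545 the 3 cells of cluster 23 held 785 of the 806 Lcn2 UMIs and 154 of the 189 Hp UMIs. These 3 cells also held 59558 of the 116935 UMIs of the class. In KPC-3403 the 13 cells of cluster 23 held 159549 of 411088. Saa3 had 0 UMIs in KPC-4545 and 16 in KPC-3403, at least 1.52-fold lower; with free RNA subtracted the KPC-3403 level fell to 12.9 CPM, under the 25.7 CPM that 3 UMIs make in KPC-4545, so no difference can be read. Over all genes tested 11.8% were called lower and 24.2% higher. Within the mature cluster 12, the sums of Slpi (0.264, 0.190 to 0.360) and Lcn2 (0.230, 0.141 to 0.356) were lower in KPC-4545. Hp (0.838, 0.567 to 1.21) and Wfdc17 (0.630, 0.522 to 0.756) did not pass 2-fold there, against 12.2% of genes called lower and 37.2% higher. Thinned shares of positive cells were alike for Lcn2, at 19.0% in KPC-4545 and 18.8% in KPC-3403. For Slpi they were 19.0% and 50.5%. Lcn2 had 21 UMIs in KPC-4545, and in KPC-3403 12 of 119 cells held 91.5% of its 401 UMIs. Wfdc17 did pass without the richest cells, with 1489 CPM in KPC-4545 and 3396 CPM in KPC-3403, and also relative to the median gene of cluster 12, which lay at 0.70 on the log2 scale. Haemoglobin and other red-cell markers summed to 325 CPM in KPC-4545 neutrophil-like cells and 5313 CPM in KPC-3403 ones, and their part in these ratios was not tested.

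In tumour-like cells the levels were low in both lines, and the sums of Saa3, Slpi and Lcn2 were lower in KPC-4545. The cells compared sat largely in different clusters, those of KPC-4545 enriched in clusters 1, 5, 6, 11 and 18 and those of KPC-3403 enriched mostly in 2 and 4. In the enriched libraries the ratio was 0.00426 for Saa3 (0.00171 to 0.00882), 0.0430 for Slpi (0.0338 to 0.0541) and 0.0232 for Lcn2 (0.0180 to 0.0295), from 7, 81 and 70 UMIs in KPC-4545 and 686, 786 and 1260 in KPC-3403; 7.56% of genes were called lower and 12.3% higher there. Of the 786 Slpi UMIs of KPC-3403, 424 lay in 1 cell. Without the richest cells Slpi was 2.27 CPM in KPC-4545 and 29.1 CPM in KPC-3403. In cluster 1, with 562 cells of KPC-4545 enriched and 41 of KPC-3403 enriched, Slpi was 3.34 CPM in KPC-4545 and 189 CPM in KPC-3403, Lcn2 3.72 and 185 CPM, and Saa3 0.110 and 30.3 CPM, in the same order of lines. Without the richest cells of cluster 1, Slpi was 2.64 and 130 CPM and Lcn2 2.52 and 97.7 CPM. The source of the Saa3 UMIs of tumour-like cells in KPC-3403 enriched was not tested, so the Saa3 ratio is not read as a difference in expression between the lines. In the whole libraries Lcn2 had 0 UMIs in KPC-4545 and 81 in KPC-3403, at least 7.16-fold lower, with 6.39% of genes called lower and 6.79% higher. Slpi had 1 UMI in KPC-4545 whole and 7 in KPC-3403 whole, at 0.852 and 1.58 CPM. Those intervals overlapped, so no Slpi difference is read there. In macrophage-like cells of the whole libraries the sums of Saa3 (0.367, 0.196 to 0.643) and Lcn2 (0.102, 0.0270 to 0.271) were lower in KPC-4545. Wfdc17 was 1.52-fold higher there (1.32 to 1.75), with 9.09% of genes called lower and 8.46% higher. Single cells held 10 of the 15 Saa3 UMIs of KPC-4545 and 51 of the 79 of KPC-3403. Without them Saa3 was 14.2 and 40.9 CPM. Estimated free RNA made up 14.8 and 26.3 CPM, so no Saa3 difference is read. Of the 76 Lcn2 UMIs of KPC-3403 macrophage-like cells, 50 lay in 1 cell. Without the richest cells Lcn2 was 6.06 CPM in KPC-4545 and 38.7 CPM in KPC-3403.

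The preparation moved the levels as well. In KPC-3403, the enriched over whole ratio of fibroblast-like cells was 2.08 for Saa3 (2.0 to 2.15), 6.01 for Slpi (5.43 to 6.67), 2.45 for Lcn2 and 3.68 for Hp, where 4.39% of genes were called higher and 5.12% lower. All 4 were higher in the sorted cells, of which 824 of 1468 were of cluster 0, against 16 of 53 in the whole library. Within cluster 0 the Saa3 level was 10680 CPM in the enriched and 5403 CPM in the whole library. In tumour-like cells the ratio was 17.3 for Saa3, 39.7 for Slpi and 5.51 for Lcn2, with 3.33% of genes called higher and 4.23% lower. Without the richest cells Slpi was 29.1 CPM in the enriched and 1.14 CPM in the whole library. Fibroblast markers moved the same way in these cells, at 319 CPM in the enriched and 14.5 CPM in the whole library, and the cells sat in different clusters, with 429 of 715 enriched cells in cluster 2 and 123 and 90 of 259 whole cells in clusters 4 and 15; the part of either in these ratios was not tested.

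Other acute-phase genes were read from lists chosen for the pathway. In KPC-3403 enriched, 7 of 13 other acute-phase genes tested were higher and 2 lower in fibroblast-like than in tumour-like cells, with a list median of 2.46 on the log2 scale against −0.14 over all genes, where 13.8% of genes were called higher and 14.3% lower. Serpina3n, a protease inhibitor of the acute phase, had 281 CPM in fibroblast-like and 3.12 CPM in tumour-like cells; Steap4, a metal reductase, had 149 and 2.56 CPM; and complement C3 had 2150 and 40.5 CPM. In mesothelial-like cells the count was again 7 higher and 2 lower of 13, with 254 CPM of Serpina3n and 2926 CPM of C3, and the background was 14.8% higher and 14.6% lower. The lipopolysaccharide-binding protein Lbp went the other way there, with 3.35 CPM in mesothelial-like and 173 CPM in tumour-like cells.

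Of the other WAP proteins and protease inhibitors, 11 of 18 were higher and 2 lower in fibroblast-like than in tumour-like cells of KPC-3403 enriched, against 13.8% and 14.3% of all genes. The complement inhibitor Serping1 had 1603 CPM in fibroblast-like and 12.3 CPM in tumour-like cells, the plasminogen activator inhibitor Serpinb2 528 and 7.76 CPM, and Serpinf1 425 and 12.1 CPM. The epithelial WAP gene Wfdc2 was the opposite of Slpi, at 1.55 CPM in fibroblast-like and 1683 CPM in tumour-like cells. In mesothelial-like cells 13 of 17 of this list were higher and 1 lower, against 14.8% and 14.6% of all genes, with 1711 CPM of the metalloprotease inhibitor Timp3 against 60.01 CPM in tumour-like cells. Protease targets of these inhibitors were not tested in the stroma at this level: none of the 10 reached the mean of 10 CPM.

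Signals known to drive the acute phase were split between cell classes. In KPC-3403 enriched, fibroblast-like cells had 109 CPM of Il6 against 1.44 CPM in tumour-like cells, and fibroblast-like cells had higher levels of the receptors Il1r1 (164 against 9.68 CPM) and Il6st (139 against 23.4 CPM); 5 of 8 receptors tested were higher and none lower. Of 13 transcription factors and feedback genes, 5 were higher and none lower, against 13.8% and 14.3% of all genes for both lists, among them the NF-κB feedback genes Tnfaip3 (316 against 57.7 CPM) and Nfkbia (1745 against 503 CPM). In KPC-3403 whole, Il1b had 6162 CPM in neutrophil-like cells and Osm 487 CPM, against 0.452 and 0 CPM in tumour-like cells, and 4 of 5 cytokines tested were higher and 1 lower. Of the protease targets, 6 of 7 were higher in neutrophil-like cells and none lower, with 1146 CPM of the elastase gene Elane and 798 CPM of Prtn3. In that comparison 19.0% of genes were called higher and 42.5% lower.

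Between the lines, neutrophil-like cells of KPC-4545 whole had no listed gene called higher, where 24.2% of all genes were. In that shallow sum 3 UMIs made 25.7 CPM, so genes near the 10 CPM limit could be called on few UMIs. Nothing is therefore read from that contrast. Called lower were 2 of 9 other acute-phase genes, 3 of 11 inhibitors, 2 of 7 protease targets, 4 of 14 transcription factors and feedback genes and 4 of 8 receptors and partners, against the 11.8% of all genes given above. Among them were Chil1 (103 against 309 CPM in KPC-3403), Cd14 (787 against 1968 CPM), the collagenase gene Mmp8 (8.55 against 216 CPM), the cystatin-like Stfa2l1 (308 against 637 CPM) and Nfkbia (1308 against 3736 CPM). The KPC-4545 level of Mmp8 lay under that of 3 UMIs. Il1b, at 7739 and 6162 CPM, was not past 2-fold. In fibroblast-like cells of the enriched libraries Lbp (460 against 71.7 CPM), Ptx3 (484 against 80.5 CPM), Serpine2 (400 against 50.9 CPM) and Cebpd (770 against 277 CPM) were higher in KPC-4545, and Serpinb2 (4.0 against 528 CPM) and Cd14 (2.0 against 106 CPM) lower. The other acute-phase list was thus called in both directions there, with 3 of 12 higher and 2 lower, where 15.7% of all genes were called higher and 5.09% lower. The KPC-4545 cells of this comparison were mostly of clusters 3 and 8, and the KPC-3403 cells mostly of cluster 0. Ptx3 was among the leading genes of cluster 3 and Serpinb2 among those of cluster 0. The part of the cluster mix in these ratios was not tested.

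Patterns over the 22 sums of a class and library with at least 20 cells were compared by Pearson correlation of log2(CPM + 1), as a description, since the sums share libraries. The genes most like Saa3 were Ptgis (0.94), Dmkn (0.91) and Gpx7 (0.90), and those most like Slpi were Xbp1 (0.77), Fth1 (0.74) and Hp (0.74). Lcn2 was most like Hp (0.85), Ftl1 (0.85) and the neutrophil gene Hdc (0.82). Hp was most like Hacd4 (0.95), Sirpa (0.94) and Adora2b (0.92), and Wfdc17 most like Pirb (0.93), Ankrd33b (0.92) and Dok3 (0.92). Among the members, Lcn2 and Hp were the closest pair and Saa3 and Wfdc17 the least alike (0.20).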

How the data were processed

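UMI counts per gene and barcode were deposited by the authors as unfiltered matrices; per the submitters' processing notes they were made with Cell Ranger 6.1.1 on mm10, while the header of the matrices names another version. The annotation used by the authors is not given in the sources used here. Kept barcodes had no fewer than 500 UMIs and 250 genes, and a mitochondrial share up to 20%. Barcodes that matched the library's free RNA (1% false discovery rate), doublets scored with Scrublet, and small copies of barcodes shared between libraries (at most 0.1 of the large copy's UMIs) were removed. Cells of the 4 libraries were clustered with scanpy 1.11.5 and leidenalg 0.10.2 (2000 variable genes without members and listed genes, 30 components, 15 neighbours, resolution 1). Clusters were named "-like" from marker lists, by a naming rule set after the clusters were seen. The members and lists were chosen with earlier results of these data known.

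Counts were summed per class and library and given as CPM, with exact Poisson intervals for levels, exact conditional binomial intervals for ratios and Clopper-Pearson intervals for shares, at 95%. Floors for sums at 0 were 3 UMIs. There was 1 library a group, so no test across libraries was run. The calculation was tested on simulated data. Text names all members; of each list, up to 4 genes with the largest ratio at a mean of at least 50 CPM past 2-fold, otherwise the 2 with the highest mean; and the 3 genes most similar to each member. All were named by these rules. Scaling factors came from edgeR 4.0.16 in R 4.3.3. Alternatives are given in the closing section.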

Additional observations from a re-analysis of the deposited data

How the results depend on the processing

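No paired analysis was possible because each line and preparation gave 1 library, and no replicate could be left out for the same reason. The depth of the whole-tumour libraries and the 26 neutrophil-like cells of KPC-4545 whole limit what can be told apart there. For 16 leading ratios, 159 values were recomputed under other settings; 153 kept their direction, and 152 lay within 1.5-fold of the reported value. The 6 that turned were Lcn2 and Hp of neutrophil-like cells between the lines. Ratios are KPC-4545 over KPC-3403, or class over tumour-like cells, on the log2 scale, and the causes were not tested.

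Between the lines in enriched fibroblast-like cells, Saa3 (−3.14) was −3.0 at Leiden resolution 2, −2.86 with shared barcodes kept, −3.48 under both trimmed-mean (TMM) and median-ratio (RLE) scaling, and −3.61 without the richest cells, that is, the cell with the most UMIs of the gene in each sum. Slpi (−6.32) was −5.42 with shared barcodes kept and −7.61 without the richest cells, where Lcn2 (−0.92) was −1.61. Hp (−0.49) was −0.83 under both scalings and −0.86 without the richest cells. In whole-tumour neutrophil-like cells, Slpi (−2.08) was −2.55 without the richest cells. Lcn2 (0.17) was −0.16 under TMM, −0.18 under RLE and −0.15 without the richest cells, and Hp (0.04) was −0.29 and −0.31 under the 2 scalings. Wfdc17 (−0.99) was −0.62 with at least 1000 UMIs a cell, −1.32 under TMM, −1.34 under RLE and −1.54 without the richest cells.

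In KPC-3403 enriched, fibroblast-like over tumour-like, Saa3 (7.06) was 7.56 with free RNA subtracted, 6.77 with doublets kept, 7.25 and 7.24 under TMM and RLE, and 7.34 without the richest cells. Slpi (5.35) was 5.07 with doublets kept, 5.21 with shared barcodes kept, 5.53 under both scalings and 6.43 without the richest cells. Hp (6.57) was 6.08 with doublets kept and 7.12 without the richest cells. For mesothelial-like over tumour-like cells, Saa3 (6.22) was 6.71 with free RNA subtracted, 7.31 at resolution 2, 6.02 with doublets kept, 6.97 with shared barcodes kept and 6.45 without the richest cells. Slpi (6.73) was 6.55 with shared barcodes kept and 7.81 without the richest cells, and Hp (6.54) was 7.0 at resolution 2 and 6.18 with doublets kept. In KPC-3403 whole, Lcn2 of neutrophil-like over tumour-like cells (8.39) was 8.75 and 8.85 under TMM and RLE. Among the other ratios, Wfdc17 of KPC-3403 fibroblast-like cells, enriched over whole (−1.41), reversed to 0.46 without the richest cells. Keeping shared barcodes, leaving out the richest cells and the Jchain split were chosen after seeing the data.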

Other observations

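A few single cells held large shares of a member outside its main classes. In KPC-3403 enriched, 1 erythroid-like cell of 13646 UMIs held 460 UMIs of Saa3, 101 of Slpi, 74 of Lcn2 and 57 of Hp. In KPC-3403 whole, 1 endothelial-like cell of 14225 UMIs held all 1159 Slpi UMIs of its class of 8 cells.

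Lcn2 and Hp were found together more often than the product of their shares in thinned cells of KPC-3403 enriched. The values were 3.57% against 1.55% in mesothelial-like cells (7 of 196 cells) and 3.11% against 1.91% in fibroblast-like cells (45 of 1448 cells). Within cluster 0 alone they were 3.45% against 2.74%, and within cluster 3 4.62% against 2.02%.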
